A study of Homo sapiens with 10 samples.

Results

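Interferon-induced antiviral effector genes are described here in 2 human lines of non-small cell lung cancer, A549 and H1650, treated with siRNA against ID1. The set was a list of 50 gene symbols, and each gene was represented by the probe set of its symbol with the highest mean log2 signal over the 10 arrays. Of the 50 listed genes, 49 had a probe set with 1 gene symbol and 48 were bright enough to be tested, among 12514 tested genes of 19775 in all. DHX58 was below the signal filter, and 1 listed gene was not analysed here. The series measured transcripts on Affymetrix U133 Plus 2.0 oligonucleotide arrays to find targets of ID1, which pairs with transcription factors of the basic helix-loop-helix class and keeps them from DNA.

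A549 carries mutant k-Ras and H1650 carries mutant EGFR, according to the labels. Each line had 5 arrays, 1 per condition: ID1 siRNA under nicotine or under EGF, and control siRNA under nicotine, under EGF or without a stimulus. All cells thus carried an siRNA, and the sequences of the siRNAs are not given in the sources used here. The doses were 1 µM nicotine and 100 ng/ml EGF, a growth factor that binds EGFR, for 18 h after 48 h without serum. There was no ID1 siRNA array without a stimulus. With n = 1 array per line and condition, and no statement that arrays came from separate cultures, errors and p-values measure how far the matched pairs differed from each other. Those differences may be technical. They also hold any difference of an effect between the stimuli, siRNAs or lines in which the pairs differ. Where values of a line are listed, nicotine comes before EGF and the unstimulated control comes last.

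Type I interferons bind the receptor IFNAR, and type III interferons (interferon lambda) bind IFNLR1 with IL10RB. Both receptors act through JAK1 and TYK2 on a complex of STAT proteins with IRF9, which binds the interferon-stimulated response element (ISRE) in promoters. Type II interferon acts through STAT homodimers on another element, GAS. The induced proteins act at each step of a viral life cycle: some sense viral RNA, some block entry or release, some stop translation or degrade RNA, and others tag or modify proteins. In epithelial tumour cells many of these genes are also known to be expressed without infection.

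Promoters of 8 members are shown, chosen after their effects and matches were seen. They are 5 windows with a match to the ISRE core (ISG15, IFIT1, IFITM1, IFI44L and BST2) and 2 without one (XAF1 and RSAD2), whose genes were among those with the larger effects in A549. The last is that of ZC3HAV1, which moved against the others. They were taken from RefSeq (GRCh38.p14), run 5′ to 3′ on the gene's strand and cover 250 bases before to 50 bases after the start. Capitals mark matches to the ISRE core (GAAA, any 2 bases, GAAA) on either strand, and overlapping matches are merged.
ISG15, chr1:1013247-1013546, plus strand: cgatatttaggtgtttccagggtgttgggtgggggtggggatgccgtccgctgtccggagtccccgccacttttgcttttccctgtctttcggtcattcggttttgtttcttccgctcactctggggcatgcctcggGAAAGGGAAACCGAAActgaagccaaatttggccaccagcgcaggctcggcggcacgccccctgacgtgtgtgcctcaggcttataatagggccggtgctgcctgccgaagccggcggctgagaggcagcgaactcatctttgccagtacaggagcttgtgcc
IFIT1, chr10:89392373-89392672, plus strand: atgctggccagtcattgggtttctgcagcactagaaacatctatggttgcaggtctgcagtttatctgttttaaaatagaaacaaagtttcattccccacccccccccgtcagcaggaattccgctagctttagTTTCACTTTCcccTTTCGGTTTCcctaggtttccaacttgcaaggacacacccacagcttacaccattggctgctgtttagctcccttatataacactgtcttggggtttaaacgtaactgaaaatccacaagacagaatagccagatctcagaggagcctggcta
IFITM1, chr11:313790-314089, plus strand: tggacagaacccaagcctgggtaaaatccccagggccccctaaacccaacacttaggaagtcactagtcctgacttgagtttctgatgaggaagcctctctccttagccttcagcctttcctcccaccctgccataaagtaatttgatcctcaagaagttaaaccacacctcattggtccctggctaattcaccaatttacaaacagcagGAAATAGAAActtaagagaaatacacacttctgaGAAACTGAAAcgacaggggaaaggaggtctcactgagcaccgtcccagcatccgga
IFI44L, chr1:78620198-78620497, plus strand: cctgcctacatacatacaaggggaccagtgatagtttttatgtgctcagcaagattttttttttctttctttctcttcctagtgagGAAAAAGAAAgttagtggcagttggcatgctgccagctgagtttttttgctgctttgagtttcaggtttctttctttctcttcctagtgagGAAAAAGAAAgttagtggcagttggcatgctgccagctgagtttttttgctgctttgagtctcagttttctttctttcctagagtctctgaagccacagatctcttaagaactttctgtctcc
BST2, chr19:17405581-17405880, minus strand: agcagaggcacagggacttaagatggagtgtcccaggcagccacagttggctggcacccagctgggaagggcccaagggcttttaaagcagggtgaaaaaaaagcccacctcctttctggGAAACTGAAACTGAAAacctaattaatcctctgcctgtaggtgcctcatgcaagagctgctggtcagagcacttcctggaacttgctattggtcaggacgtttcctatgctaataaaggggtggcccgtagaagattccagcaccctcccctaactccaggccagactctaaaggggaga
XAF1, chr17:6755796-6756095, plus strand: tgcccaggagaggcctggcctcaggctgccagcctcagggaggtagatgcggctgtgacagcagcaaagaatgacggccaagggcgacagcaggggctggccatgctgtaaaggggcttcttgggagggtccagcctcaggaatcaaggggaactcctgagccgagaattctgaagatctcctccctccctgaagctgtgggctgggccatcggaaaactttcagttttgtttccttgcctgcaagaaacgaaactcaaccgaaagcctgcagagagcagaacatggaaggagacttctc
RSAD2, chr2:6865635-6865934, plus strand: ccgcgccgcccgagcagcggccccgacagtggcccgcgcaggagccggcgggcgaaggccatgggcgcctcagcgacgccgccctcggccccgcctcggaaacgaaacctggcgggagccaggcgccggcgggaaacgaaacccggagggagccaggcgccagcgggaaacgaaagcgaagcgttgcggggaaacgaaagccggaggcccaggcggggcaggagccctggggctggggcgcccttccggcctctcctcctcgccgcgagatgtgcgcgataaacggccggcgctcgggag
ZC3HAV1, chr7:139109671-139109970, minus strand: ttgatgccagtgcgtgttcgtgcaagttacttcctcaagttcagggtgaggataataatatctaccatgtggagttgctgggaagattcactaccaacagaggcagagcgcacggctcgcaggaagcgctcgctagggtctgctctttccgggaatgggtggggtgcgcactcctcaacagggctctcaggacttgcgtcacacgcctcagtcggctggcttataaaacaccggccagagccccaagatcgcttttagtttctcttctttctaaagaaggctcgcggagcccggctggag
Counting the start base as 0, the core began at -113 and -107 in ISG15, at -116 and -103 in IFIT1, at -40 and -6 in IFITM1, at -164 and -73 in IFI44L, and at -130 and -124 in BST2, and the XAF1, RSAD2 and ZC3HAV1 windows held none. Of the 40 members with a RefSeq window, 24 (60%) held the core, against 996 of all 27305 windows (3.65%). The GAS core (TTC, any 3 bases, GAA) was in 10 of the 40 (25%), against 7.88% of all windows. These are matches of letters only and show no binding. The XAF1 and RSAD2 windows hold GAAACGAAA, a shorter spacing that the search does not match.

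ID1 itself was checked first. Its signal in A549 was 1343 and 1343 with ID1 siRNA, against 3720 and 3049 with control siRNA and 1645 on the unstimulated control. In H1650 it was 881 and 1031 with ID1 siRNA, against 4964 and 5121 with control siRNA and 5030 on the unstimulated control. The targeted transcript was therefore lower on all 4 ID1 siRNA arrays than on their matched controls, and the A549 array labelled as unstimulated control siRNA had less ID1 than both stimulated A549 controls. Across the 12514 tested genes, its log2 signals had correlations of 0.980 and 0.975 with the A549 ID1 siRNA arrays, against 0.973 and 0.969 with the stimulated A549 controls. Whether its label holds cannot be settled from the labels. From 1 array, a wrong label and a lower ID1 level in A549 without a stimulus cannot be told apart. Values that rest on that array carry this doubt. The ID1 siRNA effects of the fit do not use it. The median signal of an array was 78.5 and 75.9 with ID1 siRNA in A549, against 65.2, 61.2 and 66.1 on the controls, and lay between 73.5 and 79.6 in H1650. The part of these shifts in the results was measured by centring each array on its median, which left 46 members higher in A549 (median 2.33). All 6 epithelial markers listed were above the array median on every array. Of 5 measured blood cell markers at most 1 was above it on any array, of 4 fibroblast markers 1 or 2, and of 3 endothelial markers 1 or 2. The summed signals of the blood and endothelial lists were higher with ID1 siRNA than on every A549 control. Those of the fibroblast list overlapped. For blood markers they were 192 and 175 with ID1 siRNA, against 146, 154 and 117 on the A549 controls. For endothelial markers they were 368 and 327, against 177, 184 and 266. For fibroblast markers they were 757 and 722, against 518, 337 and 969, and COL1A1, a fibroblast collagen, was called higher in A549, at 1.14 ± 0.23 (adjusted p = 0.00846). In H1650 the endothelial sums were 419.8 and 373, against 336, 176 and 247. The fibroblast sums there were 1134 and 687, against 619, 627 and 668. The blood sums there, 171 and 185.5 against 163, 152 and 245, overlapped. The part of these markers in the results was not tested. In bulk RNA, fewer cells of a type and less RNA per cell cannot be told apart.

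**Figure D1:**
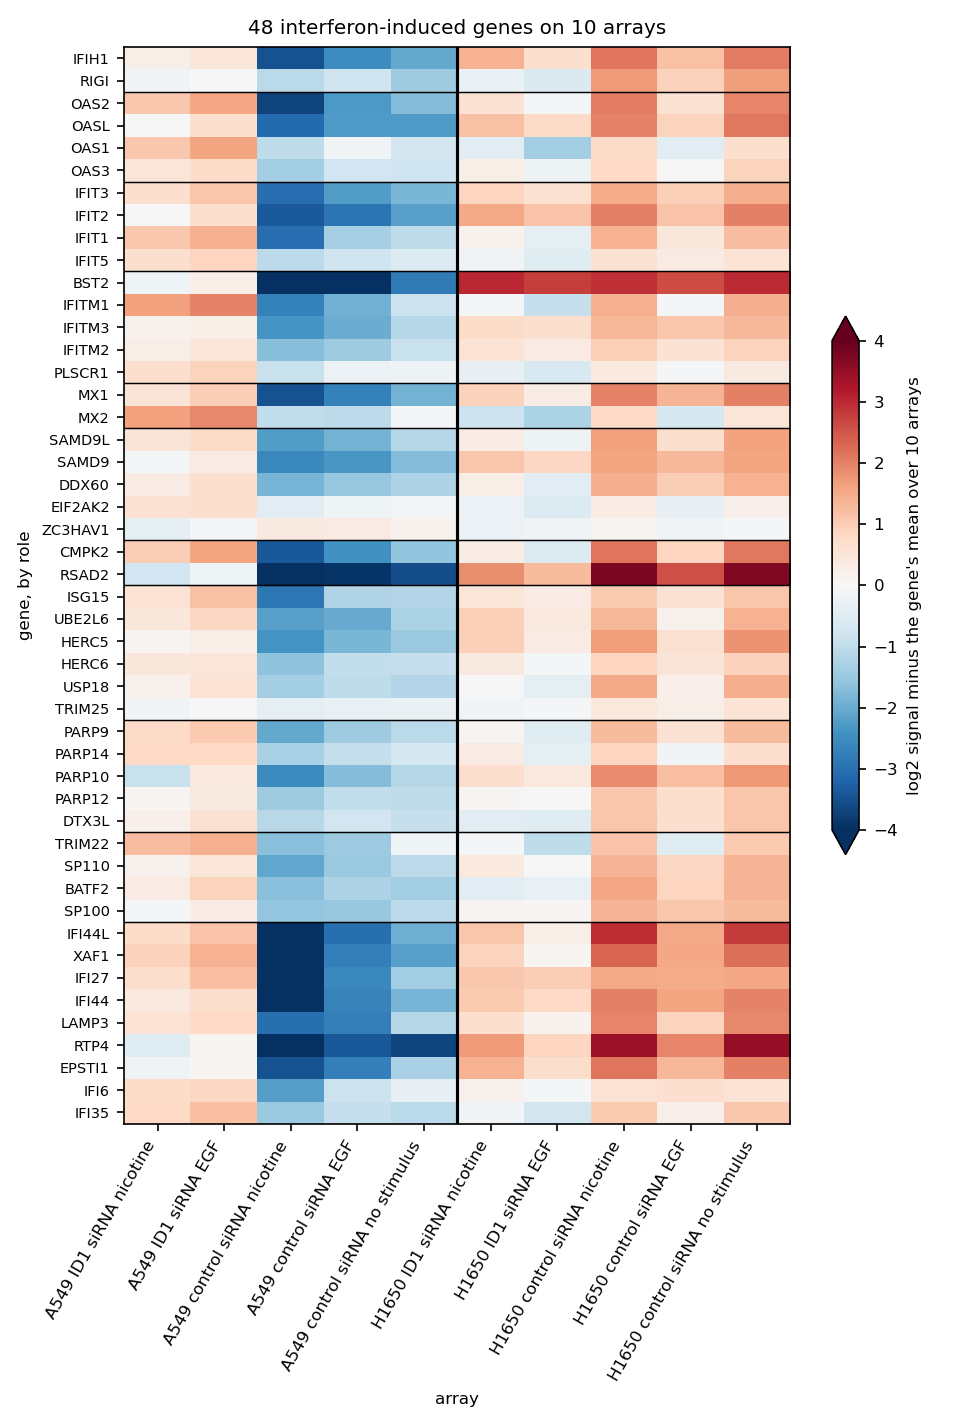
Log2 signal of each of 48 tested members, less that gene's mean over the 10 arrays, with arrays as columns, genes as lines grouped by role, and colours that stop at 4 log2 units either way. The A549 ID1 siRNA arrays lie above all A549 controls for 47 members, and the A549 controls lie below all H1650 controls for 43.

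With control siRNA the antiviral genes were far lower in A549 than in H1650. Of 48 tested members, 46 were called lower in A549, 0 higher and 2 were not called (EIF2AK2 and ZC3HAV1), by limma at an adjusted p under 0.05 over the 3 matched conditions. At an unadjusted p under 0.05, 1 was higher. The share of all genes called lower was 30% and the share called higher 27.5%. The members' median log2 difference was -2.77, against -0.05 over all genes. BST2, tetherin, which holds budding virions at the cell surface, had signals of 11.0, 21.7 and 119 in A549 controls, against 6455, 5260 and 6807 in H1650 controls, a difference of -7.65 ± 0.53 (adjusted p = 1.88e-05). RSAD2, viperin, was next at -7.41 ± 0.33 (adjusted p = 2.69e-06), with 30.7, 55.5 and 71.7 in A549, against 11276, 4932 and 10751 in H1650. The lines were far apart for both genes, and 2 of the 3 A549 controls were below their array median for each, so these sizes are uncertain. RTP4, a receptor transporter protein, was below the array median on all A549 controls, so only a bound holds: its signal was at least 10.2-fold lower in A549.

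At the other end, PLSCR1, a phospholipid scramblase, differed by -0.69 ± 0.21 (adjusted p = 0.0242), TRIM25 by -0.69 ± 0.12 (adjusted p = 0.00157), MX2 by -0.91 ± 0.32 (adjusted p = 0.0418) and OAS1 by -0.97 ± 0.34 (adjusted p = 0.0411). The calls for OAS1, MX2 and PLSCR1 were lost under some of the alternative settings. EIF2AK2, the RNA-activated kinase PKR, had 3086, 3637 and 4022 in A549 and 5050, 3265 and 4725 in H1650, a difference of -0.26 ± 0.17 (adjusted p = 0.216). ZC3HAV1, the zinc finger antiviral protein ZAP, had 4279, 4125 and 3669 in A549 and 3535, 3100 and 3205 in H1650, a difference of 0.29 ± 0.11 (adjusted p = 0.0558). Its A549 controls lay above every H1650 control on that probe set, whereas its other bright probe sets had differences of -0.05 and -2.72. Without the A549 array labelled as unstimulated, 46 members were called lower in A549 as well. Signals of the groups did not overlap for 44 members, 43 with A549 below (background 34.7%) and ZC3HAV1 with A549 above (background 32.2%). The other 4, OAS1, MX2, EIF2AK2 and TRIM22, overlapped.

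ID1 siRNA had opposite directions in the lines. In A549, 46 of 48 tested members rose, ZC3HAV1 fell and TRIM25 was not called, against 13.8% of all genes called higher and 11.4% called lower. The median log2 fold change of the members was 2.62 and that of all genes 0.05. In the nicotine pair 45 members were at least 2-fold higher (6.06% of all genes) and in the EGF pair 44 (7.96%), with medians of 2.62 and 2.42. With readings below an array's median raised to it, the counts were 44 and 43. Both ID1 siRNA arrays lay above all 3 A549 controls, the unstimulated one included, for 47 members (background 23.0%) and below them for ZC3HAV1 (background 18.7%). The limma estimates use the 2 matched pairs of the line, with a spread pooled over the 4 pairs of both lines, and errors given after ± are its standard errors.

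In H1650, 35 of 48 members fell and 0 rose (0 higher at an unadjusted p under 0.05 by limma as well), while 13 were not called, against 6.66% of all genes called lower and 5.64% called higher. The median was -0.87, against -0.01 over all genes. In the nicotine pair 24 members were at least 2-fold lower (2.69% of all genes) and in the EGF pair 12 (1.94%), with medians of -0.995 and -0.66. Both ID1 siRNA arrays lay below all 3 H1650 controls for 37 members (background 23.9%), and the groups overlapped for 11. The number called depended on the fit: it was 0 without limma's intensity trend, 13 without the pairs as blocks, 20 with the mean of all probe sets, and between 20 and 42 when 1 array was left out. With 1 array left out, its line kept 1 pair and the spread came from the other line's pairs. Counts of such fits are therefore not comparable with that of the full fit.

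The effect of ID1 siRNA differed between the lines for 47 of 48 members, all with the higher value in A549 (background 6.98% higher, 4.92% lower), and the median difference was 3.39. ZC3HAV1 was not called, at -0.35 ± 0.17 (adjusted p = 0.221). Of the members, 34 were called higher in A549 and lower in H1650, and 12 were called higher in A549 and not called in H1650. The share of all genes with such joint calls is not given here. Each line taken alone had 13.8% of all genes called higher in A549 and 6.66% called lower in H1650. The members' median difference between the lines was smaller with ID1 siRNA than with control siRNA. The A549 arrays were above both H1650 ID1 siRNA arrays for 25 members (background 40.5%) and below them for 12 (background 39.3%), 11 overlapped, and the median log2 difference was 0.29, against -2.77 with control siRNA. Set against the 3 H1650 controls, the A549 ID1 siRNA arrays were above for 8 members (OAS1, IFIT5, IFITM1, PLSCR1, MX2, EIF2AK2, TRIM22 and IFI6), below for 26, and overlapped for 14, with a background of 37.2% above and 37.4% below. The control arrays enter these comparisons and those of stimulus alike, so the comparisons are not independent.

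**Figure D2:**
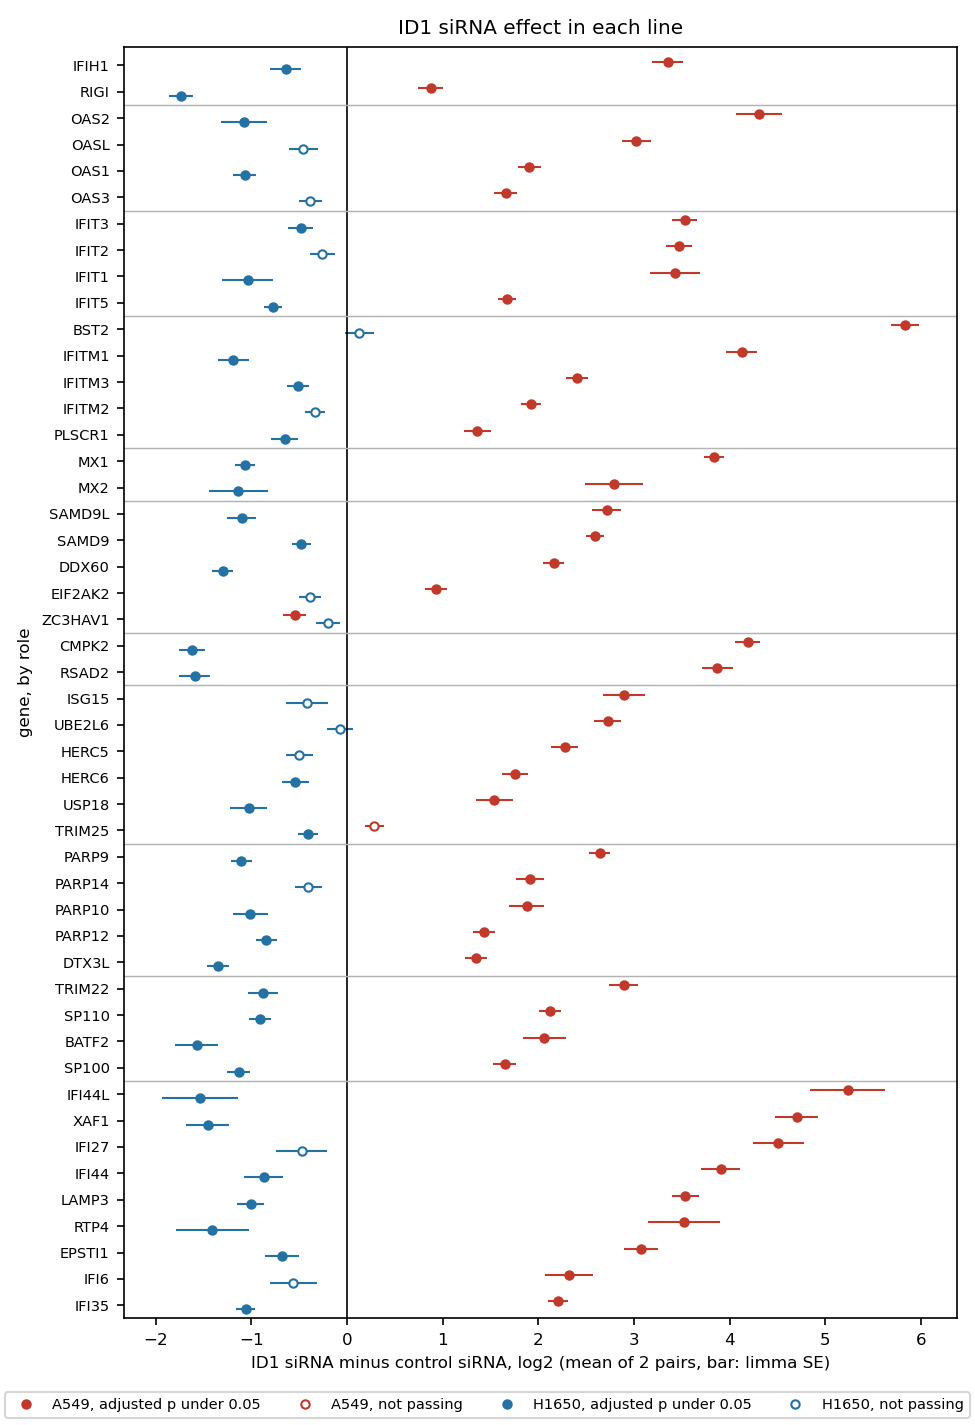
Log2 fold change of ID1 siRNA over control siRNA for each tested member in A549 and in H1650, with limma standard errors as bars and filled symbols for calls. In A549 46 members lie above 0 and are called, and in H1650 35 lie below 0 and are called.

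Among the sensors of viral RNA, IFIH1 (MDA5), which senses long double-stranded RNA, had A549 signals of 1506 and 1802 with ID1 siRNA, against 116 and 225 with control siRNA and 313 on the unstimulated control. The groups were far apart, and the log2 fold change was 3.35 ± 0.16 (adjusted p = 6.26e-06). RIGI, which senses short double-stranded RNA with a triphosphate end, had 1726 and 1869 with ID1 siRNA, against 891 and 1078 with control siRNA and 698 on the unstimulated control in A549, a log2 fold change of 0.87 ± 0.13 (adjusted p = 0.00186). Its smaller rise in A549 came with a larger fall in H1650 than any other member had. There its signals were 1550 and 1255 on the ID1 siRNA arrays, against 6082, 3556 and 6041 on the controls, a log2 fold change of -1.74 ± 0.13 (adjusted p = 5.71e-04). IFIH1 in H1650 had 3371 and 1998 on the ID1 siRNA arrays, against 5664, 2886 and 5320 on the controls, a log2 fold change of -0.64 ± 0.16 (adjusted p = 0.0348), and there the EGF control lay between the ID1 siRNA arrays. DHX58 (LGP2), which regulates both sensors, was below the array median on all 10 arrays and was not tested. It had 13.9 and 9.64 on the ID1 siRNA arrays, against 2.95, 12.0 and 4.83 on the controls in A549, and 7.26 and 5.11 on the ID1 siRNA arrays, against 29.2, 11.4 and 44.0 on the controls in H1650.

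The OAS family is known for enzymes that make the messenger that activates RNase L. All 4 of its genes rose in A549, with a median of 2.47. OAS2 had 2702 and 3728 with ID1 siRNA, against 98.1 and 262 with control siRNA and 385 on the unstimulated control, a log2 fold change of 4.31 ± 0.24 (adjusted p = 1.13e-05). OASL, which lacks the enzyme activity and works with RIG-I, had 2317 and 3732 with ID1 siRNA, against 267 and 488 with control siRNA and 487 on the unstimulated control, a log2 fold change of 3.03 ± 0.15 (adjusted p = 7.85e-06). Both were far above every A549 control. The changes of OAS3 and OAS1 were smaller. OAS3 had 5988 and 7190 with ID1 siRNA, against 1704 and 2522 with control siRNA and 2516 on the unstimulated control, a log2 fold change of 1.66 ± 0.12 (adjusted p = 5.26e-05). OAS1 had 6159 and 8578 with ID1 siRNA, against 1437 and 2621 with control siRNA and 1755 on the unstimulated control, a log2 fold change of 1.91 ± 0.12 (adjusted p = 2.35e-05). In H1650 OAS1 and OAS2 fell and OAS3 and OASL were not called. OAS2 had 1904 and 1248 on the ID1 siRNA arrays, against 5356, 1974 and 4953 on the controls, a log2 fold change of -1.08 ± 0.24 (adjusted p = 0.0219). OAS1 had 2163 and 1116 on the ID1 siRNA arrays, against 4875, 2176 and 4636 on the controls, a log2 fold change of -1.07 ± 0.12 (adjusted p = 0.00188). For both, the EGF control was the closest to the ID1 siRNA arrays. For OASL and OAS3 it lay between them. OASL gave 5267 and 3981 on the ID1 siRNA arrays, against 9148, 4316 and 10052 on the controls, a log2 fold change of -0.46 ± 0.15 (adjusted p = 0.0864). OAS3 gave 5116 and 3724 on the ID1 siRNA arrays, against 7470, 4344 and 7960 on the controls, a log2 fold change of -0.38 ± 0.12 (adjusted p = 0.0744).

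IFIT proteins bind viral RNA. IFIT1 recognises RNA that lacks host cap methylation and blocks its translation, IFIT3 is a partner of IFIT1, and IFIT5 binds RNA with a triphosphate end. All 4 IFIT genes rose in A549. IFIT3 had 12624 and 16912 with ID1 siRNA, against 958 and 1672 with control siRNA and 2236 on the unstimulated control in A549, a log2 fold change of 3.53 ± 0.13 (adjusted p = 2.18e-06). IFIT2 had 3582 and 5685 with ID1 siRNA, against 349 and 475 with control siRNA and 799.7 on the unstimulated control, a log2 fold change of 3.47 ± 0.13 (adjusted p = 2.23e-06). IFIT1 had 12406 and 15616 with ID1 siRNA, against 712 and 2343 with control siRNA and 2910 on the unstimulated control, a log2 fold change of 3.43 ± 0.27 (adjusted p = 7.31e-05). These 3 moved by like amounts, and IFIT5 moved least of the group. It had 3693 and 4338 with ID1 siRNA, against 1153 and 1358 with control siRNA and 1629 on the unstimulated control, a log2 fold change of 1.68 ± 0.09 (adjusted p = 1.13e-05). For all 4 genes the ID1 siRNA arrays lay above every A549 control. In H1650, IFIT1, IFIT3 and IFIT5 fell, and IFIT1 had the largest change. Its signals were 6473 and 4555 on the ID1 siRNA arrays, against 15399, 8057 and 13900 on the controls, a log2 fold change of -1.04 ± 0.27 (adjusted p = 0.0379). IFIT3 had 14401 and 12026 on the ID1 siRNA arrays, against 21960, 15428 and 21611 on the controls, a log2 fold change of -0.48 ± 0.13 (adjusted p = 0.0455). IFIT5 had 2153 and 1714 on the ID1 siRNA arrays, against 3617, 2980 and 3488 on the controls, a log2 fold change of -0.77 ± 0.09 (adjusted p = 0.00231). IFIT2 was not called, and its EGF control lay in the range of the ID1 siRNA arrays: it had 10187 and 7867 on the ID1 siRNA arrays, against 14460, 7906 and 14365 on the controls, a log2 fold change of -0.26 ± 0.13 (adjusted p = 0.253).

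Of the proteins that act at membranes, all 5 rose in A549. BST2 had 754 and 1024 with ID1 siRNA, against 11.0 and 21.7 with control siRNA and 119 on the unstimulated control, a log2 fold change of 5.83 ± 0.15 (adjusted p = 5.99e-07). Both stimulated controls were below the array median, so this size is not a measured one and the fold is a bound of at least 13.9. IFITM1, which hinders fusion of virus with the cell, had 10064 and 12643 with ID1 siRNA, against 488 and 854 with control siRNA and 1779 on the unstimulated control, a log2 fold change of 4.13 ± 0.16 (adjusted p = 2.47e-06). Its relatives IFITM2 and IFITM3, close enough in sequence that a probe set may read more than 1 of the genes, had log2 fold changes of 1.93 ± 0.11 (adjusted p = 1.10e-05) and 2.41 ± 0.12 (adjusted p = 7.28e-06). PLSCR1 moved least. It had 15568 and 18030 with ID1 siRNA, against 5166 and 8196 with control siRNA and 8361 on the unstimulated control, a log2 fold change of 1.36 ± 0.14 (adjusted p = 3.08e-04), and its call and that of PARP10 were lost with the mean of all probe sets. In H1650, IFITM1, IFITM3 and PLSCR1 fell. IFITM1 had 3078 and 1686 on the ID1 siRNA arrays, against 8627, 3112 and 8691 on the controls, a log2 fold change of -1.19 ± 0.16 (adjusted p = 0.00341). The log2 fold changes of the others were -0.65 ± 0.14 for PLSCR1, -0.51 ± 0.12 for IFITM3 and, not called, -0.34 ± 0.11 for IFITM2. BST2 in H1650 had 6963 and 5846 on the ID1 siRNA arrays, against 6455, 5260 and 6807 on the controls, a log2 fold change of 0.13 ± 0.15 (adjusted p = 0.645), which made it the 1 member with an estimate above 0 there.

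Of the MX GTPases, MX1 is known to form rings that trap viral nucleoproteins. MX1 had 5755 and 7894 with ID1 siRNA, against 361 and 615 with control siRNA and 1091 on the unstimulated control in A549, a log2 fold change of 3.84 ± 0.11 (adjusted p = 6.84e-07). MX2 had 549.01 and 663 with ID1 siRNA, against 88.7 and 85.7 with control siRNA and 168 on the unstimulated control, a log2 fold change of 2.79 ± 0.31 (adjusted p = 4.67e-04). Both rose, and the ID1 siRNA arrays were far above the controls. In H1650 both fell. MX1 had 7663 and 4940 on the ID1 siRNA arrays, against 16098, 10308 and 16217 on the controls, a log2 fold change of -1.07 ± 0.11 (adjusted p = 0.00138). MX2 had 98.7 and 72.7 on the ID1 siRNA arrays, against 303, 114 and 247 on the controls, a log2 fold change of -1.13 ± 0.31 (adjusted p = 0.045). The MX2 readings with ID1 siRNA in H1650 were near the medians of those arrays, and its 3 controls there spread over 114 to 303.

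Of 5 tested genes that act on translation and RNA decay, 4 rose in A549 and ZC3HAV1 fell. SAMD9L, which like its neighbour SAMD9 restricts poxviruses, had 1166 and 1385 with ID1 siRNA, against 172 and 218 with control siRNA and 367 on the unstimulated control, a log2 fold change of 2.72 ± 0.15 (adjusted p = 1.13e-05). SAMD9 had 2641 and 3401 with ID1 siRNA, against 459 and 539.7 with control siRNA and 809 on the unstimulated control, a log2 fold change of 2.59 ± 0.09 (adjusted p = 2.18e-06). DDX60, a helicase linked to RNA sensing, had 1675 and 2107 with ID1 siRNA, against 375 and 470.0 with control siRNA and 571 on the unstimulated control, a log2 fold change of 2.16 ± 0.11 (adjusted p = 7.85e-06). In these 3 genes both ID1 siRNA arrays were above every A549 control by a wide margin, and EIF2AK2 followed with a smaller change. It had 6324 and 6467 with ID1 siRNA, against 3086 and 3637 with control siRNA and 4022 on the unstimulated control, a log2 fold change of 0.93 ± 0.11 (adjusted p = 7.97e-04). ZC3HAV1, which directs CpG-rich viral RNA to decay, had 2584 and 3203 with ID1 siRNA, against 4279 and 4125 with control siRNA and 3669 on the unstimulated control, a log2 fold change of -0.55 ± 0.12 (adjusted p = 0.0127). Both ID1 siRNA arrays lay below the 3 controls. The direction of ZC3HAV1 turned to 0.12 when all its probe sets were averaged, since its other bright probe sets were at -0.05 and 0.95. Its call was also lost without the intensity trend, without the A549 nicotine control and without its ID1 siRNA partner. In H1650, DDX60, SAMD9L and SAMD9 fell. DDX60 had 1632 and 995 on the ID1 siRNA arrays, against 3683, 2661 and 3517 on the controls, a log2 fold change of -1.30 ± 0.11 (adjusted p = 7.65e-04). SAMD9L had 984 and 703 on the ID1 siRNA arrays, against 2530, 1253 and 2444 on the controls, a log2 fold change of -1.10 ± 0.15 (adjusted p = 0.00359). SAMD9 had 5852 and 4825 on the ID1 siRNA arrays, against 8192, 6656 and 8068 on the controls, a log2 fold change of -0.47 ± 0.09 (adjusted p = 0.0146). EIF2AK2 was not called (log2 fold change -0.38 ± 0.11), nor was ZC3HAV1, which had 2786 and 2998 on the ID1 siRNA arrays, against 3535, 3100 and 3205 on the controls, a log2 fold change of -0.20 ± 0.12 (adjusted p = 0.352).

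RSAD2 makes the chain terminator ddhCTP from CTP, and CMPK2, its neighbour in the genome, supplies the nucleotide. Both rose in A549. RSAD2 had 492 and 742 with ID1 siRNA, against 30.7 and 55.5 with control siRNA and 71.7 on the unstimulated control, a log2 fold change of 3.87 ± 0.16 (adjusted p = 3.61e-06), and since its stimulated controls were below the array median the fold is at least 9.56. CMPK2 had 4516 and 6842 with ID1 siRNA, against 217 and 428 with control siRNA and 764 on the unstimulated control, a log2 fold change of 4.19 ± 0.13 (adjusted p = 1.10e-06). Both fell in H1650, among the largest falls there. RSAD2 had 3029 and 2019 on the ID1 siRNA arrays, against 11276, 4932 and 10751 on the controls, a log2 fold change of -1.59 ± 0.16 (adjusted p = 0.00142). CMPK2 had 2830 and 1584 on the ID1 siRNA arrays, against 10067, 4185 and 9920 on the controls, a log2 fold change of -1.62 ± 0.13 (adjusted p = 7.57e-04).

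ISG15 is a ubiquitin-like protein that is attached to new proteins by UBE2L6 (E2) and the HERC5 ligase and removed by USP18, which also damps the type I receptor. In A549, 5 of the 6 genes of this system rose. ISG15 had 12151 and 18488 with ID1 siRNA, against 1123 and 3599 with control siRNA and 3686 on the unstimulated control, a log2 fold change of 2.90 ± 0.22 (adjusted p = 6.13e-05). UBE2L6 had 3752 and 4867 with ID1 siRNA, against 614 and 679 with control siRNA and 1139 on the unstimulated control, a log2 fold change of 2.73 ± 0.14 (adjusted p = 8.85e-06). The tag and its conjugating enzyme thus both stood far above every A549 control. HERC5 and HERC6 rose by log2 fold changes of 2.28 ± 0.14 (adjusted p = 2.26e-05) and 1.76 ± 0.14 (adjusted p = 8.19e-05). USP18 had 1356 and 1739 with ID1 siRNA, against 465 and 599 with control siRNA and 532 on the unstimulated control, a log2 fold change of 1.54 ± 0.19 (adjusted p = 9.92e-04). TRIM25, the ligase that acts on RIG-I, had 2885 and 3160 with ID1 siRNA, against 2410 and 2539 with control siRNA and 2611 on the unstimulated control. Its ID1 siRNA arrays lay above every control but the change was small and not called, a log2 fold change of 0.29 ± 0.10 (adjusted p = 0.0719). In H1650 ISG15 and the enzymes that attach it, UBE2L6 and HERC5, were not called. UBE2L6 had 5406 and 3584 on the ID1 siRNA arrays, against 6942, 3089 and 7210 on the controls, a log2 fold change of -0.07 ± 0.14 (adjusted p = 0.805). ISG15 had 11456 and 10347 on the ID1 siRNA arrays, against 16993, 12481 and 17808 on the controls, a log2 fold change of -0.42 ± 0.22 (adjusted p = 0.258). HERC5 had a log2 fold change of -0.50 ± 0.14 (adjusted p = 0.0533). USP18, HERC6 (log2 fold change -0.54 ± 0.14) and TRIM25 fell there. USP18 had 1209 and 943 on the ID1 siRNA arrays, against 3437, 1374 and 3259 on the controls, a log2 fold change of -1.03 ± 0.19 (adjusted p = 0.0121). TRIM25 had 2851 and 2988 on the ID1 siRNA arrays, against 4123, 3615 and 4516 on the controls, a log2 fold change of -0.40 ± 0.10 (adjusted p = 0.0364), and was thus called in H1650 and not in A549.

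All 5 of the PARP group rose in A549. PARP9, which works in a complex with the ubiquitin ligase DTX3L, had 2814 and 3469 with ID1 siRNA, against 405 and 621 with control siRNA and 790.3 on the unstimulated control, a log2 fold change of 2.64 ± 0.11 (adjusted p = 3.61e-06). DTX3L had 3957 and 5261 with ID1 siRNA, against 1583 and 2030 with control siRNA and 1833 on the unstimulated control, a log2 fold change of 1.35 ± 0.12 (adjusted p = 1.28e-04). PARP14, a mono-ADP-ribosyltransferase, had 1194 and 1195 with ID1 siRNA, against 282 and 357 with control siRNA and 427 on the unstimulated control, a log2 fold change of 1.91 ± 0.14 (adjusted p = 6.31e-05). These 3 genes lie near each other in the genome, and each was above all A549 controls. PARP10 and PARP12 had log2 fold changes of 1.88 ± 0.18 (adjusted p = 2.53e-04) and 1.43 ± 0.11 (adjusted p = 8.73e-05). In H1650 the group fell except PARP14, and DTX3L had the largest change, with 2533 and 2469 on the ID1 siRNA arrays, against 7447, 5459 and 7447 on the controls, a log2 fold change of -1.35 ± 0.12 (adjusted p = 8.56e-04). PARP9 had 1810 and 1179 on the ID1 siRNA arrays, against 3978, 2475 and 3981 on the controls, a log2 fold change of -1.10 ± 0.11 (adjusted p = 0.00138). The log2 fold changes of PARP10 and PARP12 were -1.01 ± 0.18 and -0.84 ± 0.11. PARP14 was not called and had 871 and 525 on the ID1 siRNA arrays, against 1252, 637 and 1101 on the controls, a log2 fold change of -0.40 ± 0.14 (adjusted p = 0.111).

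The nuclear proteins SP100 and SP110, the ligase TRIM22 and the factor BATF2 all rose in A549. TRIM22, which restricts retroviral transcription, had 3207 and 3680 with ID1 siRNA, against 429 and 498 with control siRNA and 1226 on the unstimulated control, a log2 fold change of 2.89 ± 0.15 (adjusted p = 1.01e-05). SP110 had 1417 and 1760 with ID1 siRNA, against 297 and 444 with control siRNA and 601 on the unstimulated control, a log2 fold change of 2.12 ± 0.11 (adjusted p = 1.06e-05). SP100, a constituent of PML nuclear bodies, had 1299 and 1639 with ID1 siRNA, against 465 and 466 with control siRNA and 646 on the unstimulated control, a log2 fold change of 1.65 ± 0.12 (adjusted p = 5.28e-05). All ID1 siRNA values again exceeded those of the controls. BATF2 had 456 and 684 with ID1 siRNA, against 116 and 154 with control siRNA and 139 on the unstimulated control, a log2 fold change of 2.06 ± 0.22 (adjusted p = 4.51e-04). All 4 fell in H1650, with the largest change in BATF2. It had 272 and 300.3 on the ID1 siRNA arrays, against 1079, 666 and 940.2 on the controls, a log2 fold change of -1.57 ± 0.22 (adjusted p = 0.0042). SP100 had 1465 and 1403 on the ID1 siRNA arrays, against 3442, 2866 and 3220 on the controls, a log2 fold change of -1.13 ± 0.12 (adjusted p = 0.00161). SP110 had 1657 and 1235 on the ID1 siRNA arrays, against 3239, 2236 and 3247 on the controls, a log2 fold change of -0.91 ± 0.11 (adjusted p = 0.00262). TRIM22 had 1298 and 678 on the ID1 siRNA arrays, against 3013, 987 and 2810 on the controls, a log2 fold change of -0.88 ± 0.15 (adjusted p = 0.00891), and its EGF control lay between the ID1 siRNA arrays.

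The remaining 9 members, many known mainly as interferon-induced proteins, all rose in A549, with a median of 3.54. IFI44L had 1979 and 2628 with ID1 siRNA, against 25.02 and 147 with control siRNA and 309.5 on the unstimulated control, a log2 fold change of 5.23 ± 0.39 (adjusted p = 6.24e-05). Its nicotine control was below the array median, so the fold of its nicotine pair is a bound of at least 30.35. XAF1, which opposes the caspase inhibitor XIAP, had 2512 and 3476 with ID1 siRNA, against 64.2 and 201 with control siRNA and 295 on the unstimulated control, a log2 fold change of 4.70 ± 0.22 (adjusted p = 6.26e-06). IFI35 moved least and had 3739 and 4924 with ID1 siRNA, against 767 and 1120 with control siRNA and 1015 on the unstimulated control, a log2 fold change of 2.21 ± 0.10 (adjusted p = 6.24e-06). These were the ends of the group. Between them lay the log2 fold changes of IFI27 (4.51 ± 0.27), IFI44 (3.91 ± 0.20), LAMP3 (3.54 ± 0.14), EPSTI1 (3.07 ± 0.18) and IFI6 (2.32 ± 0.25). RTP4 (3.52 ± 0.38) was called, but it was below the array median on all A549 controls and on the ID1 siRNA array with nicotine. No bound on its mean fold can therefore be given, and the fold of its EGF pair was at least 1.49. It was below the array median on 4 A549 arrays and 0 H1650 arrays, so it passed the signal filter through its H1650 signals. In H1650, 7 of the 9 fell, with the largest change in IFI44L. It had 2570 and 1429 on the ID1 siRNA arrays, against 9189, 3365 and 8200 on the controls, a log2 fold change of -1.54 ± 0.39 (adjusted p = 0.0379). XAF1 had 2477 and 1410 on the ID1 siRNA arrays, against 6673, 3940 and 6119 on the controls, a log2 fold change of -1.46 ± 0.22 (adjusted p = 0.00566). IFI35 had 1964 and 1270 on the ID1 siRNA arrays, against 4425, 2449 and 4462 on the controls, a log2 fold change of -1.06 ± 0.10 (adjusted p = 0.00133). The log2 fold changes of the others that fell were -0.87 ± 0.20 for IFI44, -1.01 ± 0.14 for LAMP3, -0.68 ± 0.18 for EPSTI1 and -1.41 ± 0.38 for RTP4. IFI27 (-0.47 ± 0.27) and IFI6 (-0.56 ± 0.25) were not called, although both ID1 siRNA arrays lay below every control.

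Some members lie side by side in RefSeq gene order, with no other protein-coding gene between them. Their A549 log2 fold changes are given here in that order, and differences between genes were not tested. OAS1, OAS3 and OAS2 had 1.91 ± 0.12, 1.66 ± 0.12 and 4.31 ± 0.24. The size of OAS2 hung on its probe set, since its other bright ones were at 2.35 and 2.09, near the other OAS3 probe set at 2.03. IFITM2, IFITM1 and IFITM3 had 1.93 ± 0.11, 4.13 ± 0.16 and 2.41 ± 0.12. SAMD9 and SAMD9L had 2.59 ± 0.09 and 2.72 ± 0.15, and IFIT2 and IFIT3 had 3.47 ± 0.13 and 3.53 ± 0.13. These 2 pairs were close in size. IFIT1 and IFIT5 had 3.43 ± 0.27 and 1.68 ± 0.09. CMPK2 and RSAD2 had 4.19 ± 0.13 and 3.87 ± 0.16. PARP9 and DTX3L had 2.64 ± 0.11 and 1.35 ± 0.12. The remaining adjacent pairs were IFI44L and IFI44, MX2 and MX1, and HERC6 and HERC5. Members whose promoter window held the ISRE core (24) had a median of 2.74 in A549 and -0.65 in H1650. Those with a window lacking it (15 tested) had 2.12 and -1.10. These medians are a description with no test.

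The stimuli were compared within control siRNA, where the A549 ratios rest on the array whose label is in doubt, and where each line had 1 array per condition and no test within a line was possible. Under nicotine in A549, 23 of 48 members were at least 2-fold lower than on the unstimulated array (3.44% of all genes), 0 were higher, and the median was -0.95. With readings below an array's median raised to it, 21 were at least 2-fold lower. IFI44L had 25.02 with nicotine, against 309.5 with no stimulus, at least 4.75-fold lower because the nicotine reading was below its array's median. IFI27 had 303, against 2668 (log2 -3.14). BST2 had 11.0, against 119, at least 1.83-fold lower for the same reason. With EGF in A549 7 were at least 2-fold lower (5.11%; 6 with such readings raised) and the median was -0.43. BST2 had 21.7 with EGF, against 119, again below its array's median and at least 1.95-fold lower. LAMP3, a lysosomal membrane protein, had 163, against 488 (log2 -1.58). The A549 arrays with nicotine or EGF thus lay below the unstimulated one for most members, and the unstimulated array was the one with low ID1. It lay above both stimulated controls and below both ID1 siRNA arrays for 37 of 48 members (background 13.3%). The part of ID1 in this order was not tested, and there is 1 such array.

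In H1650 the values under nicotine were close to those without a stimulus. Nicotine had 0 members at 2-fold (background 0.575% lower) and a median of 0.04, whereas EGF had 14 members at least 2-fold lower (2.09%) and a median of -0.67. RTP4 had 323 with EGF, against 953 with no stimulus (log2 -1.56). TRIM22 had 987, against 2810 (log2 -1.51). IFITM1 had 3112, against 8691 (log2 -1.48). The EGF array was the lowest of the 3 H1650 controls for 47 of 48 members (background 43.6%). Averaged over the lines, limma called 0 of all 12514 genes for nicotine and 0 for EGF against no stimulus. At an unadjusted p under 0.05 it had 6 and 8 members, all lower. These counts have no background, since the share of all genes at that threshold is not given here. The median was -0.50 for nicotine and -0.53 for EGF. Without the unstimulated H1650 array, the level without a stimulus rested on the A549 array whose label is in doubt. Without a stimulated H1650 control, the level of that stimulus likewise rested on 1 A549 array. Counts of those fits are therefore not given.

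EGF and nicotine could be compared with 2 pairs per line, 1 with ID1 siRNA and 1 with control siRNA. In A549 all 48 estimates were above 0 (median 0.45) and 0 were called by limma, with 0.024% of all genes called higher. At an unadjusted p under 0.05 limma had 31 members higher. The share of all genes at that threshold is not given here, so the 31 have no background. In H1650 all 48 were below 0 (median -0.62) and 5 were called lower (0.144% of all genes): OAS1 at -1.06 ± 0.12 (adjusted p = 0.0201), IFITM1 at -1.17 ± 0.16 (adjusted p = 0.0351), CMPK2 at -1.05 ± 0.13 (adjusted p = 0.0299), TRIM22 at -1.27 ± 0.15 (adjusted p = 0.029) and IFI35 at -0.74 ± 0.10 (adjusted p = 0.0375). These counts depended on the fit. With 1 array left out, its line kept 1 pair and the spread came from the other line's pairs. Counts of such fits are therefore not comparable with those of the full fit. Without the intensity trend 0 of 48 members were called in H1650. When 1 array was left out, between 5 and 20 members were called lower in H1650, and between 0 and 16 higher in A549, with 0 when either stimulated A549 control was left out and 14 to 16 when any other array was. The difference between the lines, a test added after the values were seen, had a median of 1.09 and was called for 5 members (0.0639% of all genes), CMPK2, IFI35, IFITM1, MX1 and OAS1. It was called for 4 to 30 members when 1 array was left out.

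**Figure D3:**
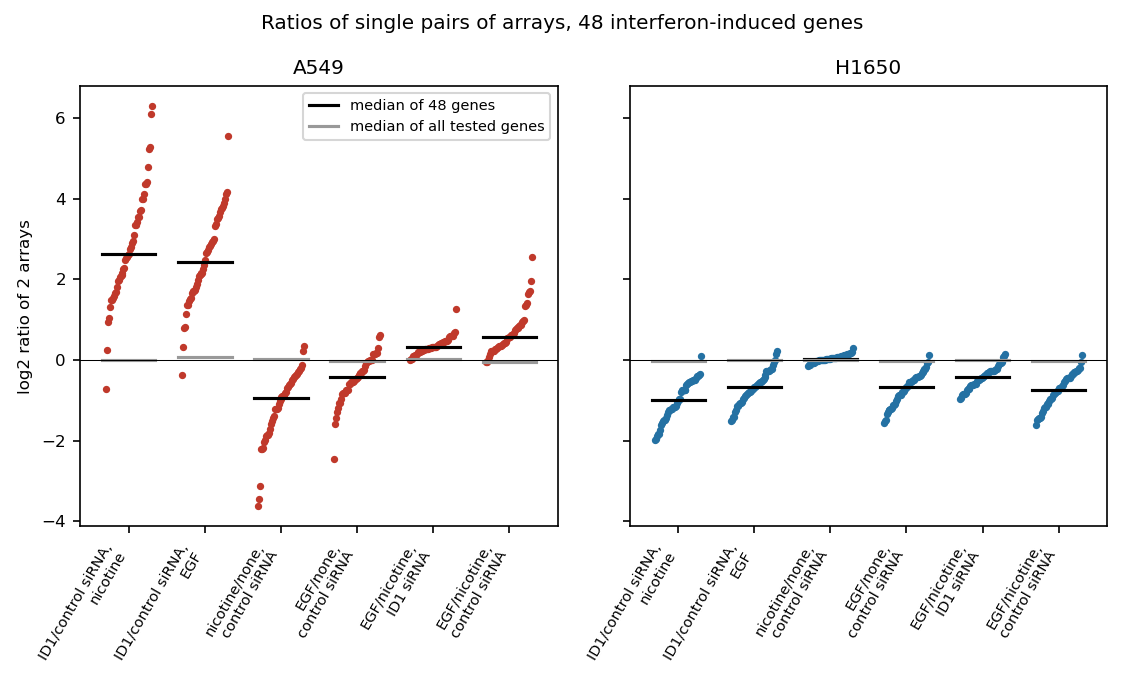
Log2 ratio of each tested member within single pairs of arrays, by line, for ID1 siRNA over control siRNA under each stimulus, each stimulus over none with control siRNA, and EGF over nicotine with each siRNA. Points are members, sorted within each ratio, black bars their medians and grey bars the medians of all tested genes. The ID1 siRNA medians are 2.62 and 2.42 in A549, against -0.995 and -0.66 in H1650.

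The genes that make, receive and transmit the interferon signal were listed separately. Of 37 listed, 34 had a probe set and 28 were tested, and some listed signalling genes were not analysed here. In A549, 14 of the 28 rose and 1 fell (13.8% and 11.4% of all genes), with a median of 0.56. In H1650, 0 rose and 6 fell (5.64% and 6.66%), with a median of -0.28. IFNB1, interferon beta, had A549 signals of 62.3 and 111 with ID1 siRNA, against 2.70 and 2.24 with control siRNA and 4.88 on the unstimulated control. It was under the filter and not tested. Of the 5 A549 arrays, the 1 with ID1 siRNA and EGF had it above the array median, so no fold is given for the line. In H1650 it had 57.8 and 44.0 with ID1 siRNA, against 109 and 48.0 with control siRNA and 116 on the unstimulated control. Of the lambda interferons, IFNL1 had 152 and 257 with ID1 siRNA, against 61.5 and 45.7 with control siRNA and 36.7 on the unstimulated control in A549, a log2 fold change of 1.90 ± 0.33 (adjusted p = 0.00402). IFNL2, whose sequence is close to that of another lambda gene that its probe set may read, had 258 and 457 with ID1 siRNA, against 54.0 and 76.9 with control siRNA and 52.3 on the unstimulated control, a log2 fold change of 2.41 ± 0.35 (adjusted p = 0.00192). Both rose. The stimulated A549 controls were below the array median for IFNL1, so its fold is at least 3.13. In H1650 their estimates were -0.38 ± 0.33 (adjusted p = 0.519) and -0.94 ± 0.35 (adjusted p = 0.124), not called.

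IRF9, the DNA-binding subunit of the type I and III complex, had 2468 and 3037 with ID1 siRNA, against 856 and 1502 with control siRNA and 1280 on the unstimulated control in A549, a log2 fold change of 1.27 ± 0.14 (adjusted p = 5.52e-04). In H1650 it had 1383 and 1021 on the ID1 siRNA arrays, against 1848, 1746 and 1786 on the controls, a log2 fold change of -0.60 ± 0.14 (adjusted p = 0.0301). It thus rose in A549 and fell in H1650. IRF7, the factor that amplifies interferon production, had 2749 and 4442 with ID1 siRNA, against 471 and 963 with control siRNA and 1090 on the unstimulated control in A549, a log2 fold change of 2.38 ± 0.26 (adjusted p = 4.65e-04). In H1650 it was not called and had 36.7 and 27.7 on the ID1 siRNA arrays, against 23.7, 12.5 and 39.2 on the controls, below the array median on every array. Of the receptor chains, IFNGR1 rose in A549 (log2 fold change 2.04 ± 0.10), and so did IFNGR2 (0.77 ± 0.11) and IL10RB (0.40 ± 0.11), while IFNGR2 (-0.53 ± 0.11), IL10RB (-0.40 ± 0.11) and IFNAR2 (-0.81 ± 0.13) fell in H1650. TLR3, the endosomal sensor of double-stranded RNA, had 479 and 549.27 with ID1 siRNA, against 55.9 and 50.8 with control siRNA and 169 on the unstimulated control in A549, a log2 fold change of 3.27 ± 0.22 (adjusted p = 3.94e-05), at least 8.12-fold since both stimulated controls were below the array median. STING1 (0.98 ± 0.19) and IRF1 (0.76 ± 0.16) rose in A549 as well. TBK1, the kinase that activates IRF3, was the gene that fell in A549 (-0.39 ± 0.11), and it fell in H1650 too (-0.42 ± 0.11). The feedback and effector genes SOCS1 (1.49 ± 0.23), SOCS3 (0.50 ± 0.13), ISG20 (1.59 ± 0.14) and ADAR (0.84 ± 0.13) rose in A549, and ISG20 fell in H1650 (-0.98 ± 0.14).

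**Figure D4:**
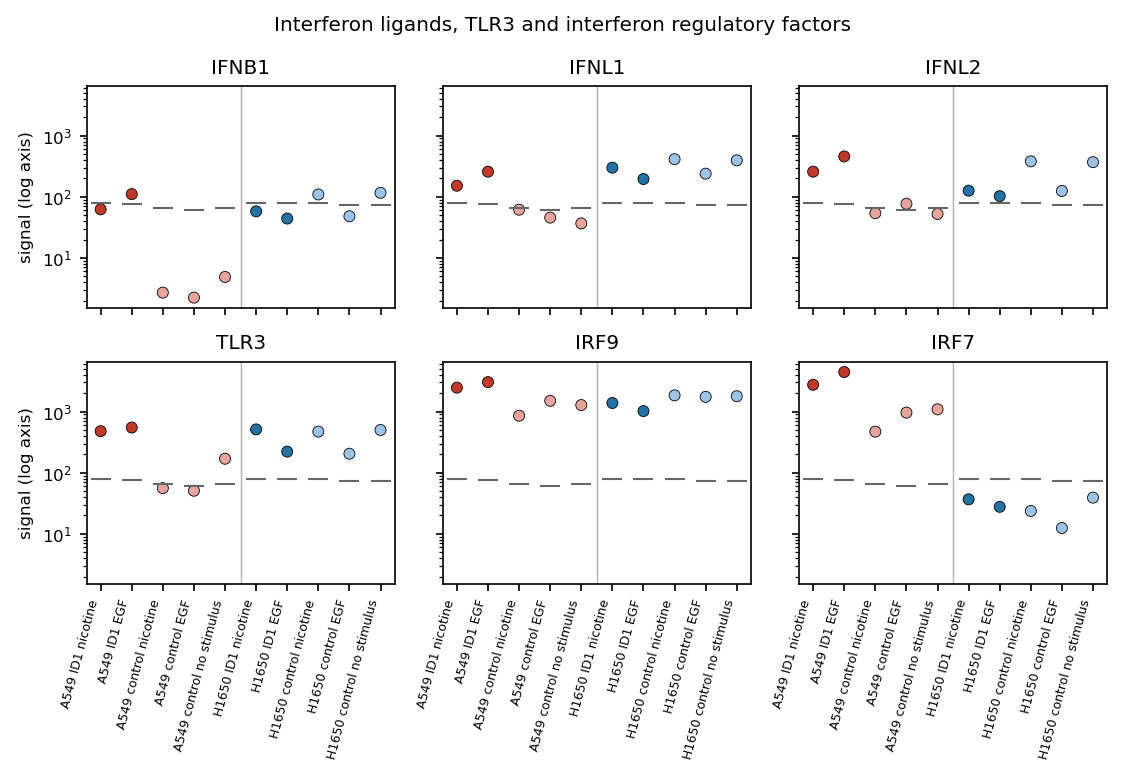
Signal on a log scale of ligands and signalling genes on each array, ID1 siRNA arrays left of the control arrays in each line, with short bars at each array's median. IFNB1 reads 62.3 and 111 on the A549 ID1 siRNA arrays, against 2.70, 2.24 and 4.88 on the A549 controls.

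Of the members, 21 had other probe sets above the array median filter, 34 in all, and these served as a second reading of the same transcripts on the same arrays. In A549 33 of the 34 had the sign of the probe set used, in H1650 34, and for A549 against H1650 controls 32, where both exceptions were those of ZC3HAV1. Sizes differed more than signs. In A549 the other probe sets of RIGI were at 1.36 and 1.96, against 0.87 for the one used, those of OAS2 at 2.35 and 2.09, against 4.31, and those of XAF1 at 4.10 and 1.79, against 4.70. The exception in A549 was the ZC3HAV1 probe set at 0.95.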

How the data were processed

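Transcripts of A549 and H1650 cells were measured on 10 Affymetrix U133 Plus 2.0 arrays. The authors deposited 1 linear signal intensity per probe set, made with GCOS 1.4 and MAS5 per the submitters' processing notes. The labels' growth protocol mentions log2 values, whereas those deposited were linear, with a 2% trimmed mean of 500.1 on every array, so log2 was taken here. All columns were mapped to samples by title. Of 54675 probe sets, 62 controls, 1801 with several symbols and those without a symbol were set aside. The 41091 with 1 symbol were named from the platform annotation, and 41037 of them were matched to RefSeq by Entrez identifier. Each gene was read from its brightest probe set by mean log2 signal, and was tested if that mean reached the median over all probe sets, log2 6.06 or a signal of 66.7.

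Tests were made with limma 3.58.1 (R 4.3.3), an intensity trend and Benjamini-Hochberg adjustment over 12514 genes, and calls are those with an adjusted p under 0.05. The ID1 siRNA effects came from the 8 stimulated arrays with the 4 pairs of the same line and stimulus as blocks. EGF minus nicotine came from the same arrays with line and siRNA as blocks, and the control levels and stimuli from the 6 control siRNA arrays with line and stimulus as terms. Each fit had 2 residual degrees of freedom, with a median of 6.64 (5.56 for the control arrays) added from other genes. A signal below its array's median is called dim, and where a whole lower group was dim the fold is a bound, with none given if an array of the higher group was dim too. The number of arrays limits the precision. The fit was tested on simulated data. Alternatives were quantile normalization, array median centring, 16 added before log2, no filter or a stricter one, averaging a gene's probe sets, no intensity trend, no blocks, and each array left out.

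In each role group, values of every array are given for up to 2 members with the largest and 1 with the smallest effect in A549, for the member with the largest effect in H1650, and for exceptions to the group. Signalling genes that passed a test are named too. A few members shown on every array beyond this rule were chosen after their values were seen. The members and lists were chosen with earlier results of these data known. Promoter sequences are from RefSeq, GRCh38.p14, and 40 members matched.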

Additional observations from a re-analysis of the deposited data

Results flagged for a closer look

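In 47 members the effect of ID1 siRNA, as log2 fold change, differed between A549 and H1650 by limma's test of the difference itself, each with the higher value in A549. The values below are that difference, A549 minus H1650, and each error pools the spread over both lines, with 2 pairs of arrays per line. Among the RNA sensors it was 3.99 for IFIH1 and 2.61 for RIGI. For the oligoadenylate synthetases it was 5.38 for OAS2, 3.48 for OASL, 2.97 for OAS1 and 2.05 for OAS3. For the IFIT proteins it was 4.47 for IFIT1, 4.01 for IFIT3, 3.73 for IFIT2 and 2.45 for IFIT5. For the membrane proteins it was 5.70 for BST2, 5.31 for IFITM1, 2.92 for IFITM3, 2.26 for IFITM2 and 2.02 for PLSCR1. For the MX GTPases it was 4.90 for MX1 and 3.93 for MX2. Of the genes acting on translation and RNA decay it was 3.81 for SAMD9L, 3.46 for DDX60, 3.07 for SAMD9 and 1.32 for EIF2AK2. For viperin and its neighbour it was 5.80 for CMPK2 and 5.46 for RSAD2. In the ISG15 system it was 3.32 for ISG15, 2.80 for UBE2L6, 2.77 for HERC5, 2.57 for USP18, 2.30 for HERC6 and 0.69 for TRIM25. In the PARP group it was 3.74 for PARP9, 2.89 for PARP10, 2.70 for DTX3L, 2.31 for PARP14 and 2.27 for PARP12. For the nuclear proteins it was 3.77 for TRIM22, 3.63 for BATF2, 3.03 for SP110 and 2.78 for SP100. Of the other induced proteins it was 6.77 for IFI44L, 6.16 for XAF1, 4.98 for IFI27, 4.93 for RTP4, 4.78 for IFI44, 4.54 for LAMP3, 3.75 for EPSTI1, 3.27 for IFI35 and 2.88 for IFI6. The sizes for BST2, RSAD2 and RTP4 rest on A549 readings below the array median and are uncertain. Those for IFI44L, XAF1 and EPSTI1 rest in part on such a reading, that of the A549 nicotine control. ZC3HAV1 was the tested member for which the difference was not called. The effect of EGF relative to nicotine also differed between the lines for 5 members, with estimates above 0 in A549 and below 0 in H1650. This difference in log2 fold change was 1.84 for CMPK2, 1.21 for IFI35, 1.74 for IFITM1, 1.25 for MX1 and 1.73 for OAS1, and its test was added after the values were seen. The explanations of these differences were not tested.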

How the results depend on the processing

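Of the interferon-induced genes, those called higher with ID1 siRNA in A549 (46 of 48) numbered 44 to 46, those with the higher effect in A549 than in H1650 (47) numbered 43 to 47, and those called lower in A549 than in H1650 controls (46) numbered 43 to 47 under the settings run and with each array left out. ZC3HAV1 turned from lower to 0.117 with the mean of all probe sets. Members called lower in A549 numbered 0 there and without the intensity trend, and 0 to 1 when 1 array was left out. Members called lower in H1650 numbered 20 with the mean of all probe sets, 0 without the trend, 13 with no replicate block (pairs matched by line and stimulus in the labels), and 20 to 42 when 1 array was left out. Centring arrays on their medians shifted the median of all genes in A549 from 0.05 to -0.235, with members at 2.33, gave 4914 genes called in A549 (3161 otherwise), 2432 for the difference, 1 member lower in the difference, and 1 member higher in A549 than H1650 controls, as did the upper quartile filter with 1. All genes called were 1747 in A549, 592 in H1650 and 636 for the difference with the mean of probe sets, 1394, 1 and 199 without the trend, and 957 for the difference with no replicate block. When 1 array was left out they were 1452 to 3598 in A549, 981 to 1862 in H1650 and 878 to 1665 for the difference. EGF against nicotine was the least stable. In A549, members called higher were 2 with centring and 0 to 16 with 1 array left out, and all genes called were 14 with centring, 2 with 16 added, 2 with no filter, 2 with the mean of probe sets, 0 without the trend, 0 with no replicate block, and 21 to 216 with 1 array left out. In H1650, members called lower were 2 with quantile normalization, 13 with centring, 8 with 16 added, 1 with no filter, 18 with the upper quartile filter, 0 with the mean of probe sets, 0 without the trend and 0 with no replicate block, and 5 to 20 with 1 array left out. All genes called in H1650 were 106, 8, 99, 3, 0 and 0 with centring, no filter, the upper quartile filter, the mean of probe sets, no trend and no replicate block, and 88 to 266 with 1 array left out. For the difference, members called higher were 1 with quantile normalization, 17 with centring, 2 with no filter, 18 with the upper quartile filter, and 0 with the mean of probe sets, no trend and no replicate block, and 4 to 30 with 1 array left out, while all genes called were 6, 28, 6, 27, 0, 0 and 0 in that order, and 16 to 166. Against no stimulus, leaving out 1 array gave 0 to 10 members lower and 0 to 422 genes called for nicotine, and 0 to 13 members and 0 to 657 genes for EGF, the highest member counts without the unstimulated H1650 array. In the ID1 siRNA and the EGF against nicotine fits, leaving out 1 array left its line 1 pair. Counts with 1 array left out are therefore not comparable there with those of the full fit. The causes were not tested. With 1 array per condition, 2 residual degrees of freedom and some signals near or below the array median, sizes of single genes are uncertain. Such signals occurred for BST2, RSAD2, RTP4, MX2, IFI44L, XAF1 and EPSTI1.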
